A study of Homo sapiens with 3 samples.

Results

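Integrins, laminins and the glycoproteins of the extracellular matrix were followed in H2373 cells treated with a Hoechst dye. The members were defined by gene symbol, as all array genes named as an integrin alpha or beta subunit, a laminin chain or a thrombospondin. To these were added FN1, HSPG2, AGRN, NID1, NID2, FBN1, FBN2, TNC, SPARC and VCAN. This gave 50 genes with 75 probes, out of 18851 genes and 48798 probes on the array. The rule uses symbols and no measured value, but it was chosen with earlier results of these data known.

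H2373 is a cell line from malignant pleural mesothelioma, a cancer of the cell layer that lines the chest cavity. One culture was left untreated, another received 36 µM H258 and the last received 36 µM H342, both Hoechst dyes, for 3 h, and no vehicle is named for the untreated culture. Total RNA from each condition was labelled with biotin and hybridised to 1 Illumina BeadChip array, so there were 3 arrays and no replicates. H258 carries a hydroxyl group on its terminal phenyl ring and H342 an ethoxy group at that place, and both bind the minor groove of A/T-rich DNA. All comparisons below are therefore between single arrays: no p-value or error could be given, and a difference describes these libraries. Because RNA came from whole cultures, fewer cells of a kind and less RNA per cell cannot be told apart.

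Integrins are receptors made of an alpha and a beta subunit. They span the membrane, bind matrix proteins outside the cell and connect to actin inside it, and the pairing of subunits sets which matrix protein is bound. Laminins are cross-shaped trimers of an alpha, a beta and a gamma chain and form the main network of the basement membrane, the thin matrix sheet on which mesothelial cells rest. Nidogens, perlecan and agrin tie that network to other components, while fibronectin, fibrillins, versican, tenascin, SPARC and thrombospondins belong to the matrix between cells or act on it.

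The signal of a probe is the mean brightness of its beads, in arbitrary units, and a probe was called detected where its detection p against the negative control beads was under 0.05. The arrays had 16169 (untreated), 15115 (H258) and 15248 (H342) detected probes, with median signals of 133, 132 and 130.0. Of the 12 genes listed as mesothelial markers, 8 were detected in untreated, 7 in H258 and 8 in H342 cells. UPK3B, PDPN and KRT5 were not detected on any array, whereas MSLN (mesothelin) had signals of 1533, 2063 and 2575. WT1 and CALB2 of the same list were detected but dimmer, at 372 and 282 in untreated cells. The markers did not share the direction of MSLN. WT1 was highest under H258 and lowest under H342, and CALB2 had 270 under H258 and 235 under H342. KRT19, with 210, 157 and 148, was detected in untreated cells only. By the normalized differences described below, 4 of 8 markers tested were higher under H258 than in untreated cells, and 4 of 9 under H342. PTPRC and CD3E of leukocytes and VWF, CDH5 and KDR of endothelium were not detected. Still, 3, 4 and 4 of 10 leukocyte markers and 2 of 8 endothelial markers on each array were. Among these were CD68, LCP1 and CD14, at 2733, 417 and 239 in untreated cells, and PECAM1 and ERG, at 243 and 183. Of 9 fibroblast markers, 6 were detected on each array. They included COL1A1, PDGFRB and COL1A2, at 1253, 1175 and 895 in untreated cells.

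Of the 50 members, 29 were detected on at least 1 array. Differences were taken between background-corrected, quantile-normalized log2 signals of each gene's brightest probe, and a gene entered a comparison if either array detected it. A gene was called at a difference of 2-fold or more. Under H258 none of the 28 members tested was called, where 0.768% of all 10550 genes tested were called higher and 3.35% lower. Under H342 none of 29 members was called higher and 1, THBS2, was called lower, beside 1.25% and 3.61% of 10581 genes. Between the dyes 1 of 29 members, ITGAV, was called higher under H342 and none lower, beside 3.74% and 3.69% of 10296 genes. The share of members called was thus near the background in every comparison.

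**Figure D1:**
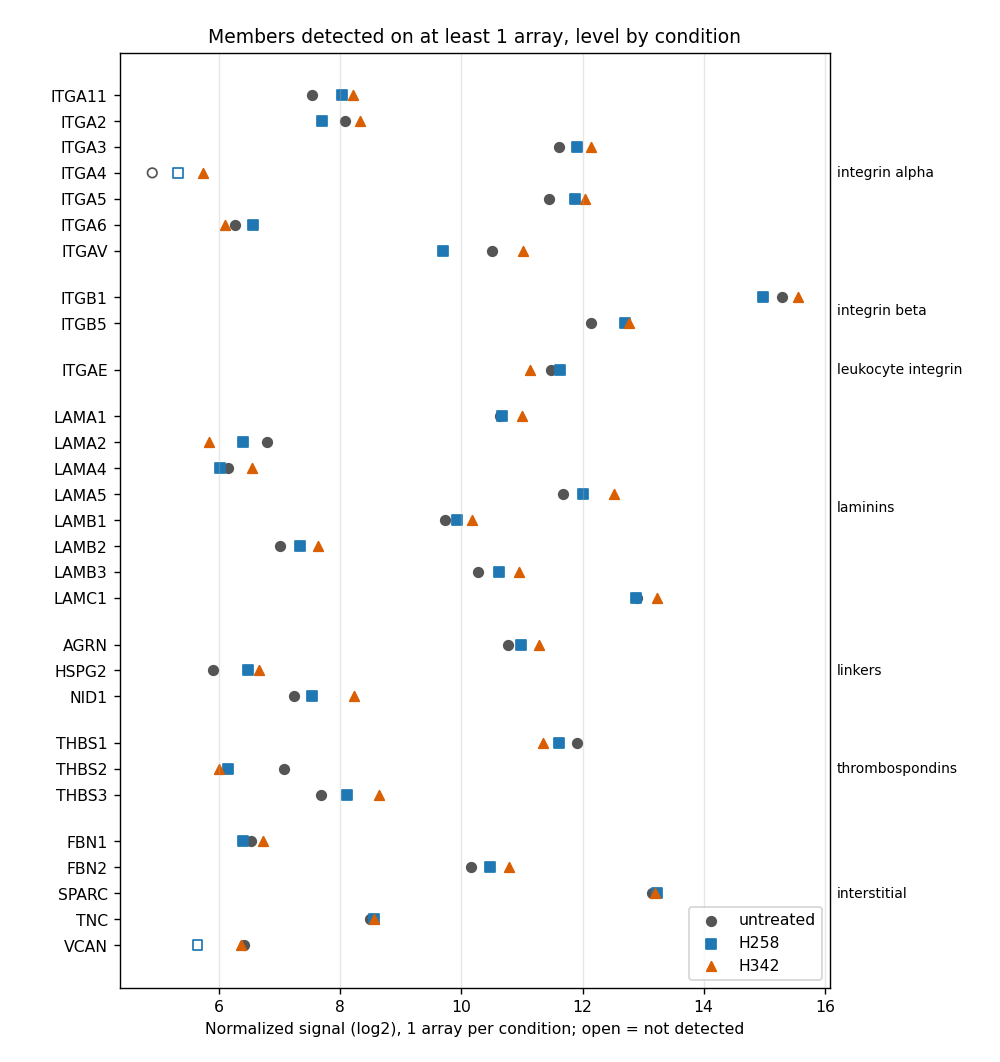
Normalized signal (log2) of the 29 members detected on at least 1 array, grouped by role, with 1 marker per condition (circle untreated, square H258, triangle H342; open markers, not detected). Each marker is 1 array and carries no error bar. The squares of ITGAV, ITGB1 and VCAN lie to the left of their other markers, and the triangles of most laminins lie to the right.

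Smaller differences were more frequent under H342. At 1.5-fold, 11 of the 29 members (37.9%) were higher under H342 than in untreated cells, against 7.95% of all genes tested. With detection required on both arrays it was 10 of 28, against 7.28%. These 10 were ITGA5, ITGA11, ITGB5, LAMA5, LAMB2, LAMB3, HSPG2, NID1, THBS3 and FBN2, and the other was ITGA4, which entered through the H342 array alone and whose difference is only bounded. THBS2 and LAMA2 were lower by that much, 2 of 29 against a background of 9.84%. Under H258 no member was 1.5-fold higher (background 7.22%) and 3 of 28, namely ITGAV, THBS2 and VCAN, were lower (background 11.6%). VCAN was not detected under H258, and without it 2 of 27 were lower, against 10.5%. Between the dyes ITGAV, VCAN, NID1 and ITGA2, 4 of 29, were 1.5-fold higher under H342 (background 11.5%) and none was lower (background 10.3%). VCAN entered through the H342 array alone, and with detection on both arrays the count was 3 of 27, against 10.7%. The count of 11 became 5 without background correction, where 2.2% of all genes were that much higher, and 5 without normalization between arrays, where 5.5% were. LAMA5, NID1 and THBS3 were among the members counted under each of the 7 alternative settings tried.

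The median log2 difference of the members under H342 was 0.44, and that of all genes tested was 0.03. Above 0 lay 23 of the 29 members (79.3%), beside 53.1% of all genes. Among members and genes detected on both arrays the medians were 0.42 and 0.05, and 22 of 28 members lay above 0 beside 55.3% of genes. Under H258 the corresponding medians were 0.16 and 0.06, with 18 of 28 members (64.3%) above 0 beside 55.4% of genes. Between H342 and H258 they were 0.31 and -0.01, with 22 of 29 members (75.9%) above 0 beside 48.3% of genes. The members differ in level from the average gene, so the genes tested were also split by level into 4 bins of equal size. The brightest bin held 12 members under H342, of which 10 lay above 0 with a median of 0.45, beside 52.3% of the genes in that bin. In the dimmest bin 4 of 8 members lay above 0, with a median of 0.08, beside 47.5% of genes. The bins between held 6 and 3 members, all above 0. Both dye arrays were compared with the same untreated array, so that array's own deviations enter both sets of values.

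**Figure D2:**
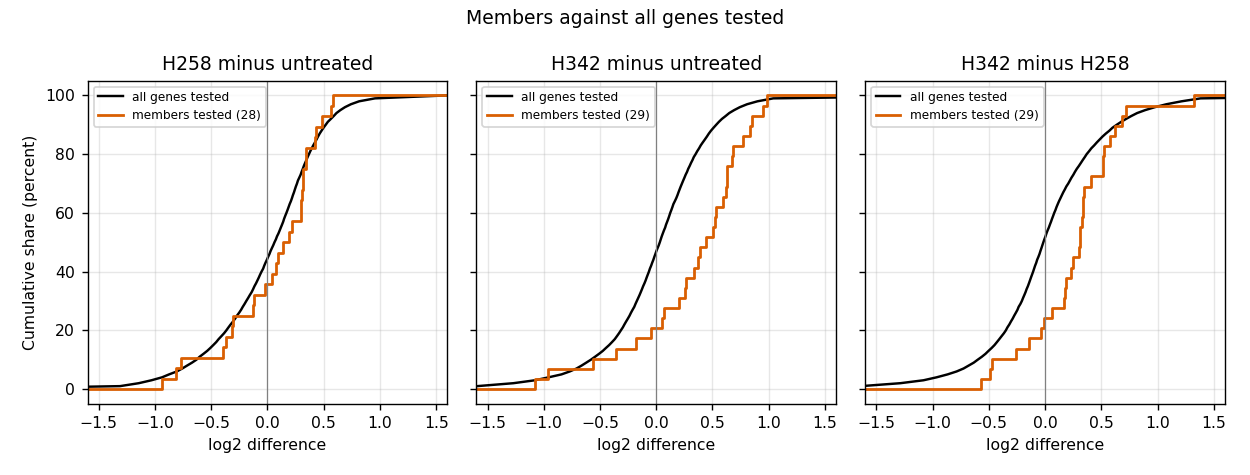
Cumulative share (percent) of log2 differences in each comparison, for all genes tested (black) and for the members tested (orange steps; 28, 29 and 29 members). In the H342 comparisons the orange steps lie to the right of the black curve over most of the range, with member medians of 0.44 and 0.31, and under H258 they lie close to it.

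The alpha subunits of integrins in adherent cells gave 12 members, of which 7 were detected. ITGAV encodes alpha v, the subunit of the vitronectin receptors, which recognise an arginine-glycine-aspartate motif. Its signal was 1603 in untreated, 932 in H258 and 2095 in H342 cells, so that it was lowest under H258 and highest under H342. On the log2 scale it was -0.81 under H258 and 0.51 under H342 from untreated, neither past 2-fold. The difference between the dyes was 1.32, or 2.50-fold, and 1.22% of the genes tested were higher under H342 by as much or more. It ranged from 1.17 in the authors' own normalized table to 1.38 with cyclic loess, past 2-fold in each case. ITGAV has 1 probe on the array, so agreement between probes could not be checked for it.

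ITGB1 encodes beta 1, the subunit shared by most laminin, collagen and fibronectin receptors. Its brightest probe (ILMN_1723467) ranked 145, 195 and 97 among all 48798 probes, with signals of 40204, 33665 and 47625 in untreated, H258 and H342 cells. The log2 differences were -0.31 under H258, 0.26 under H342 and 0.57 between the dyes. A second probe (ILMN_1714820) had signals of 15246, 8228 and 16117. For it the values were -0.94, 0.18 and 1.12, the last being 2.17-fold. Both probes were lowest under H258, yet they differed in size by 0.62 under H258, a gap reached by 7.42% of the 2211 genes with at least 2 probes detected on all arrays. A further probe close to the detection limit gave 205, 183 and 221, with the same order of the arrays. The remaining ITGB1 probe was not detected on any array. The array annotation names different transcripts for the brightest and the second probe, and the undetected probe has the same transcript as the second.

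The promoters of ITGAV, ITGB1 and ITGA2 are shown because these were the detected subunits with the lowest signal under H258 and the highest under H342, and because the dyes bind runs of A/T bases in DNA. ITGA2 is a collagen receptor subunit, with signals of 390, 315 and 422. Each sequence is the 250 bases before the gene's start in RefSeq (build GRCh38.p14), in lower case with every run of 4 or more A or T in capitals. The ITGAV and ITGB1 sequences hold no such run, and that of ITGA2 holds 1.
ITGAV promoter (chr2:186589806-186590055, plus strand): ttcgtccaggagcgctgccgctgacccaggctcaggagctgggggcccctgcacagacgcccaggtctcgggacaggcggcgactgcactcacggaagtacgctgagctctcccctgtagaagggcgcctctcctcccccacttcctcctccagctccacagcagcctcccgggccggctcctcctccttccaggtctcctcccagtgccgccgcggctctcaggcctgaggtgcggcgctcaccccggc
ITGB1 promoter (chr10:32958231-32958480, minus strand): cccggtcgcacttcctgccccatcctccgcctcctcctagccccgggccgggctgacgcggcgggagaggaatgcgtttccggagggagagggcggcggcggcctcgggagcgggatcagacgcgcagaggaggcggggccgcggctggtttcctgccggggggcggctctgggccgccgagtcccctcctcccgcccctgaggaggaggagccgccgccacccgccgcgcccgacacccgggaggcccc
ITGA2 promoter (chr5:52989102-52989351, plus strand): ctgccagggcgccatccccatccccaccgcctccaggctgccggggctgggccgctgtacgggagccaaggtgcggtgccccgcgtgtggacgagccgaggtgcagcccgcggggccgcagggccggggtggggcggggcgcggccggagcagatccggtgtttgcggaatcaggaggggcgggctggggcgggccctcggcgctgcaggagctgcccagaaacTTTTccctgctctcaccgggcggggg
A or T made up 29.2% of the ITGAV, 21.6% of the ITGB1 and 23.6% of the ITGA2 sequence. Among 8876 promoters of genes detected on the arrays the median was 35.2%, and 15.6% of them held no such run. Among the promoters of 26 detected members the median was 30.4%, and 19.2% held no run. The promoters of ITGA5 and HSPG2, which were higher under both dyes, also held none.

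ITGB5, whose product pairs with alpha v to bind vitronectin, did not follow ITGB1. Its signals were 4699, 6946 and 6717 in untreated, H258 and H342 cells, higher under both dyes. The log2 differences were 0.56 and 0.63, and both other detected probes of the gene were also higher under each dye, by 0.31 and 0.38 for one and by 0.71 and 0.65 for the other. A further pair of ITGB5 probes was not detected on any array. Between the dyes the gene differed by 0.06, and the probes lay on both sides of 0. ITGB5 and ITGB1 were the only beta subunits detected among 6 of adherent cells: ITGB3, ITGB4, ITGB6 and ITGB8 were not detected on any array.

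Further alpha subunits were higher under both dyes. ITGA5, the fibronectin receptor subunit, had signals of 2978, 3994 and 4110, with log2 differences of 0.42 and 0.59. ITGA3, which pairs with beta 1 as a laminin receptor, had 3319, 4103 and 4376, with 0.30 and 0.53. Its dim second probe gave -0.11 under H258. ITGA11, a collagen receptor subunit, had 305, 367 and 397, with 0.49 and 0.67. For these genes the untreated array was the lowest of the 3.

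ITGA2, as given beside its promoter, was lowest under H258. It differed by 0.62 between the dyes. ITGA6, a laminin receptor subunit, had low signals of 191, 204 and 174, and was the single alpha subunit of this group with a value below 0 under H342 (-0.18). ITGA4, whose product binds fibronectin and VCAM1, was detected under H342 only, with signals of 108, 138 and 157 and a detection p of 0.0488 there. Since it was not detected in untreated cells, its difference is given as a bound of at least 1.09-fold.

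The integrins of leukocytes and platelets served as a check on the cell type. Of 8 such members only ITGAE was detected, the alpha E subunit that binds E-cadherin, with signals of 3052, 3341 and 2270. It was lower under H342 than in untreated cells by 0.36 on the log2 scale. ITGA2B, ITGAD, ITGAL, ITGAM, ITGAX, ITGB2 and ITGB7 were not detected on any array.

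**Figure D3:**
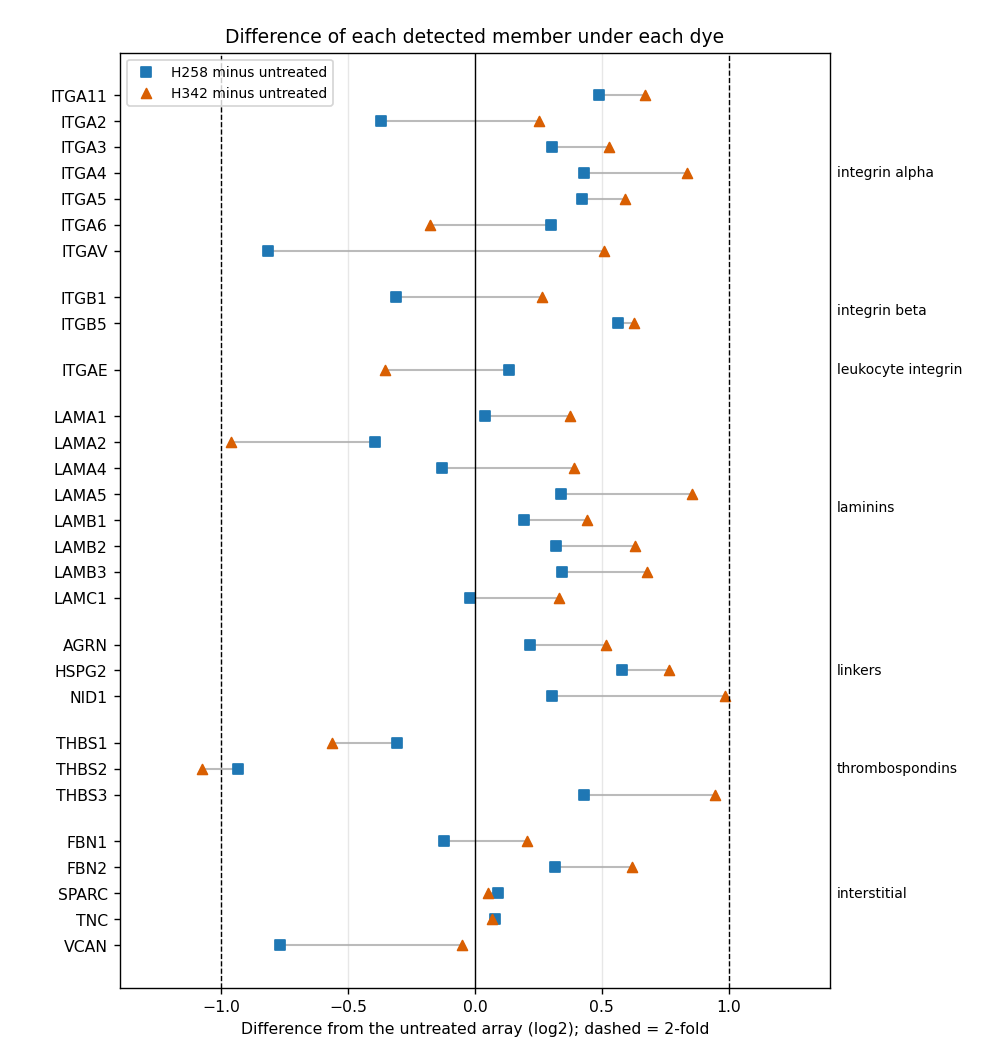
Log2 difference from the untreated array for each detected member, under H258 (squares) and H342 (triangles), grouped by role and joined by a grey line; dashed lines mark 2-fold. Each marker compares 2 single arrays, both with the same untreated array. THBS2 under H342 is the only marker past a dashed line, and the longest line, of ITGAV, joins -0.81 and 0.51.

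Of 10 laminin chains, 8 were detected. Under H342, 7 of these 8 had values above 0, with a median of 0.42 and none called at 2-fold. Under H258 the median was 0.12, and LAMC1 (-0.02) and LAMA1 (0.04) changed sign under other scalings. LAMA5, the alpha 5 chain of the laminins of mature basement membranes, had signals of 3452, 4374 and 5817, lowest in untreated and highest in H342 cells. It was 1.81-fold higher under H342, a log2 difference of 0.85, and 2.35% of the genes tested were higher by as much or more. The value ranged from 0.77 to 0.85 over the settings that changed the background correction, the normalization or the table, so this bright probe moved little.

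The chains that assemble with it were also higher under H342. LAMC1, the gamma 1 chain found in most laminins, had signals of 7876, 7982 and 9068, with a log2 difference of 0.33 from untreated under H342. LAMB1 had 993, 1079 and 1221, with 0.44, but its second probe gave 593, 677 and 579, a difference of 0.05. LAMB2, the beta 2 chain, was dim at 247, 269 and 304, with 0.63. These 3 chains were highest in H342 cells by their brightest probes.

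LAMB3, the beta 3 chain of the laminin that anchors epithelia, had signals of 1394, 1717 and 2020 and log2 differences of 0.34 and 0.68. Its 2 dim probes gave 0.41 and -0.42 under H342, so the probes lay on both sides of 0. LAMA1, the alpha 1 chain of embryonic laminin, had 1731, 1769 and 2082 by its brightest probe, and 406, 410 and 602 by its second. Both probes were highest under H342, with differences from untreated of 0.37 and 0.83. LAMA4, a chain of vascular and muscle basement membranes, was near the detection limit at 184, 173 and 200.

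LAMA2, the laminin chain of muscle and nerve, went the other way. Its signals were 227, 193 and 161, highest in untreated and lowest in H342 cells. It was lower under H342 by 0.96 on the log2 scale, or 1.95-fold. The size depended on the background correction, since the difference was -0.43 without it. The second probe, at 170, 180 and 152, was lower under H342 by 0.25. LAMB4 and LAMC3 were not detected.

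**Figure D4:**
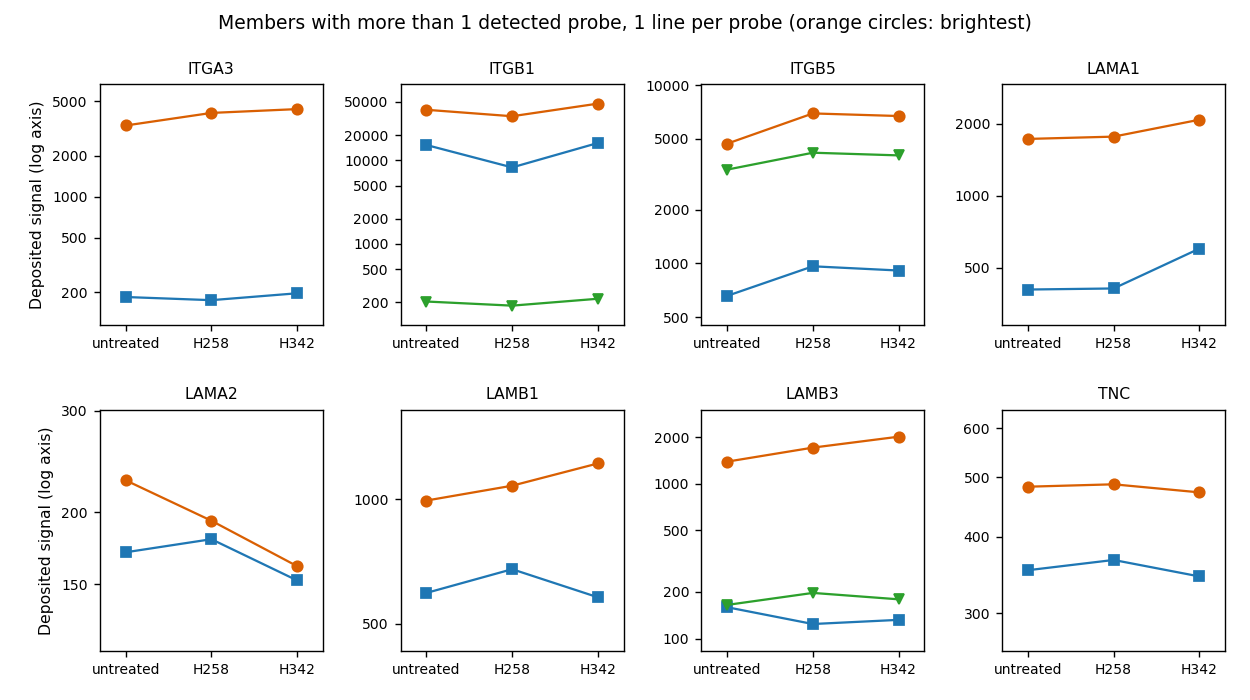
Deposited signal (log axis, arbitrary units; each panel has its own range) of every detected probe of the 8 members with more than 1 detected probe, by condition, with 1 line per probe and orange circles for the brightest. Lines join the 3 arrays of a probe and carry no error. Both bright ITGB1 lines dip at H258, all ITGB5 lines are lowest in untreated cells, and the LAMB3 lines run in different directions.

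Of the 8 members with at least 2 detected probes, the probes shared the side of 0 in 7 under H342 and in 5 under H258. LAMB3 was the exception under H342. Under H258 the exceptions were ITGA3, LAMA2 and LAMB3. Over all 2211 genes with at least 2 probes detected on all arrays, the median gap between a gene's probes was 0.21 under H258 and 0.20 under H342, and 10% of genes exceeded 0.58 in each.

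The linkers of the basement membrane were detected in 3 of 4 cases, and all 3 had values above 0 under both dyes. NID1 (nidogen 1), which bridges laminin to type IV collagen, had signals of 269, 294 and 401, with the H342 array well above the others. The difference under H342 was 0.98, or 1.98-fold, just short of a call, and 1.34% of the genes tested were higher by as much or more. It was 0.65 without background correction. HSPG2 (perlecan), a heparan sulfate proteoglycan, was dim at 171, 198 and 208, with 0.58 and 0.77. AGRN (agrin), another heparan sulfate proteoglycan, had 1897, 2180 and 2497, with 0.22 and 0.52. NID2 was not detected.

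The promoters of LAMA5 and NID1 follow, as the laminin chain and the linker with the highest log2 difference from untreated under H342. They come from the same table and are written in the same way, and each holds 1 capitalised run.
LAMA5 promoter (chr20:62367313-62367562, minus strand): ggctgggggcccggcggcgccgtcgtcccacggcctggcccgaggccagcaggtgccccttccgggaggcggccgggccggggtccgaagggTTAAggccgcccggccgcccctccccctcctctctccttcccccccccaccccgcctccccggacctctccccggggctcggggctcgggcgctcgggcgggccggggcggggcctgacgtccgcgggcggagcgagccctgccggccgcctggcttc
NID1 promoter (chr1:236065091-236065340, minus strand): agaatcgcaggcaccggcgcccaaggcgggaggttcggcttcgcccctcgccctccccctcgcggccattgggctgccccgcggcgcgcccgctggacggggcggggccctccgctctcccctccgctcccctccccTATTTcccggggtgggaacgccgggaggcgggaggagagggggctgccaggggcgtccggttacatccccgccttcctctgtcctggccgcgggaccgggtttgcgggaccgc
A or T made up 17.2% of the LAMA5 and 23.6% of the NID1 sequence.

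The thrombospondins differed among themselves. THBS2, a secreted glycoprotein that binds matrix proteases and limits vessel growth, had signals of 253, 180 and 170, with both dye arrays below the untreated one. Relative to untreated cells the fold decrease was 1.91 with H258 and 2.11 with H342, log2 differences of -0.93 and -1.07. Among the genes tested, 3.02% were lower under H342 by as much or more. The call rested on the background correction for a dim probe: without it the difference was -0.51, and with a larger offset of 50 it was -0.78. THBS1, which activates latent TGF-beta and is bright in these cells, had 4031, 3305 and 2606. It was lower under H258 by 0.31 and under H342 by 0.56, and 10.5% of genes were lower by as much or more under H342.

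THBS3, a pentameric thrombospondin best known in bone and cartilage, was higher under both dyes. Its signals were 327, 385 and 493, with log2 differences of 0.43 and 0.94, the latter 1.93-fold. The value under H342 fell to 0.68 without background correction and was above 0 under each setting tried. THBS4 was not detected. The promoters of THBS2 and THBS3 are shown because these genes lay farthest apart within the family.
THBS2 promoter (chr6:169253847-169254096, minus strand): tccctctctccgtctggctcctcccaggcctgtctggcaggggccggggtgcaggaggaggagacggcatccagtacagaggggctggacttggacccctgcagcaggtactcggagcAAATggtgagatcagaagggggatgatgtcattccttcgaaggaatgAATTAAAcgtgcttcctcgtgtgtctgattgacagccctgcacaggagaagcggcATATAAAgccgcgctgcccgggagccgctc
THBS3 promoter (chr1:155207898-155208147, minus strand): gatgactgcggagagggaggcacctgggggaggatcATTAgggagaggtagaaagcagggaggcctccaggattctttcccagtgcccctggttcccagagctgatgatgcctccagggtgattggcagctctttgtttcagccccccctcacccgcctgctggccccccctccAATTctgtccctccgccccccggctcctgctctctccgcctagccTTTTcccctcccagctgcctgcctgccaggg
Each holds 3 capitalised runs, the longest of 7 bases in THBS2 and of 4 in THBS3. A or T made up 40.0% of the first and 35.6% of the second, and the THBS2 sequence alone among those shown holds a TATAAA.

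The interstitial glycoproteins showed no common direction. FN1 (fibronectin) has 3 probes on the array, none of them detected, and its brightest gave signals of 147, 122 and 129. VCAN (versican), a large chondroitin sulfate proteoglycan, had 199, 155 and 189 and was not detected under H258, so its differences rest on the background correction. From untreated to H258 the log2 difference was -0.77 with the correction and -0.34 without it, and between the dyes it was 0.72 and 0.31. FBN2 (fibrillin 2), a microfibril protein, had 1288, 1544 and 1800, with log2 differences of 0.31 and 0.62. SPARC, a collagen-binding matricellular protein, was bright and nearly level at 9154, 10331 and 8897. TNC (tenascin C), which modulates adhesion to fibronectin, was level too, at 482, 487 and 472. FBN1 was near the detection limit at 207, 193 and 212.

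The 21 members not detected on any array had signals from 97.6 to 154 in untreated, 92.2 to 153 in H258 and 102 to 156 in H342 cells. The lowest detected signals were 156, 160.0 and 157. For these members no difference was read.

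**Figure D5:**
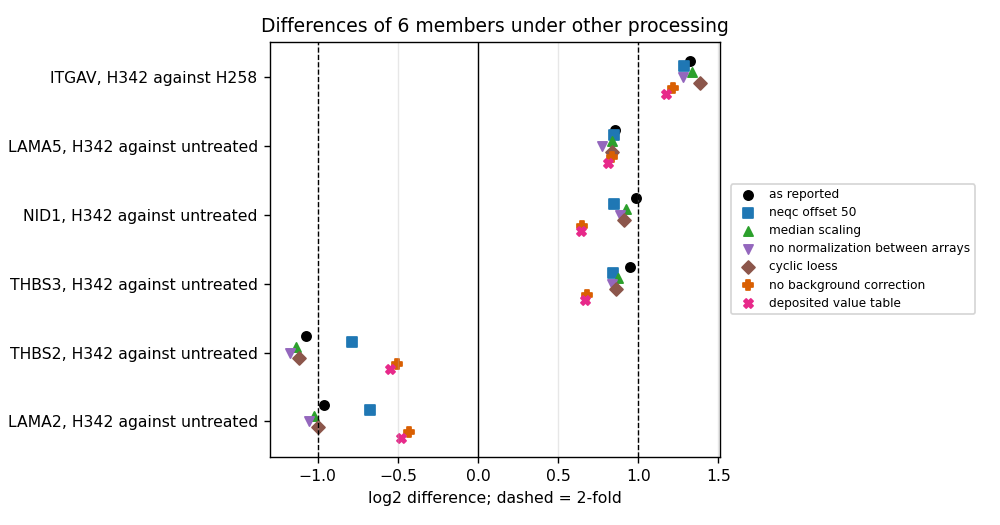
Log2 differences of 6 members (vertical axis, with the comparison) under the reported processing and 6 others, with 1 marker per setting and dashed lines at 2-fold. ITGAV stayed past the line in each setting, LAMA5 stayed short of it, and the dim THBS2 and LAMA2 moved toward 0 without background correction (-0.51 and -0.43) and in the deposited value table.

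Promoter sequences were at hand for 38 of the 50 members, and 26 of these were detected. The letters searched, on both strands of the 250 bases, were a run of 4 or more A or T and the motif AATT, which lies inside such runs. Also searched were the motif GGGCGG, the motif TGANTCA and the motif TATAAA, which is itself such a run. A run was found in 21 of the 26 (80.8%), beside 84.4% of 8876 promoters of detected array genes and 89.0% of 27305 in the table. The detected members without a run were ITGAV, ITGB1, ITGA5, HSPG2 and LAMC1. AATT was in 23.1% of the 26 against 31.3% of the detected array genes, and GGGCGG in 61.5% against 67.0%. TATAAA was in 2 of them, ITGA6 and THBS2 (7.69% against 5.76%), and TGANTCA in none against 3.82%. The median share of A or T was 30.4% in the 26 and 35.2% in the detected array genes, and the median number of runs was 1 and 3. These values describe letters and not binding.

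Genes that work with the members were taken as lists. Of 43 focal adhesion genes, which tie integrins to actin, 36 were tested under each dye against untreated and none was called. Of all genes tested, 0.768% were called higher and 3.35% lower under H258, and 1.25% and 3.61% under H342. The list's median log2 differences were 0.18 under H258 and 0.20 under H342, beside 0.06 and 0.03 over all genes. Between the dyes 1 of 35 tested was called higher and none lower, beside 3.74% and 3.69% of all genes. It was LPP, a zyxin-like focal adhesion protein, 2.26-fold higher under H342. Its signals were 2877, 1556 and 3172, lowest under H258. NEDD9, an integrin signalling scaffold, had 505, 469 and 300, lower under H342 by 0.96. TGFB1I1 (Hic-5), a paxillin relative, had 467, 649 and 701, with 0.65 and 0.84.

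Of 20 other matrix receptors and surface proteins, 15 were tested and none was called in any comparison. The shares of all genes called, from 0.768% to 3.74% by comparison and direction, leave few calls to be found among 15. The medians were 0.17 under H258, 0.26 under H342 and -0.01 between the dyes, beside 0.06, 0.03 and -0.01 over all genes. The largest differences from untreated were in CSPG4, a chondroitin sulfate proteoglycan, with signals of 339, 488 and 474 and log2 differences of 0.795 under H258 and 0.788 under H342. DDR1, a collagen receptor kinase, had 257.8, 324 and 317, with 0.64 and 0.60. The 13 control genes had medians of -0.03 under H258 and 0.03 under H342. Single control genes ranged from -0.34 (HPRT1) to 0.39 (GUSB) under H258 and from -0.26 (TBP) to 0.53 (GUSB) under H342. Between the dyes they ranged from -0.32 (TBP) to 0.46 (HPRT1). Differences of the size seen in some members thus also occurred in single control genes. Under H342, GUSB was the only control gene above the members' median of 0.44, and the next highest was HPRT1 at 0.12.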

How the data were processed

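As deposited by the authors, signal intensities are bead averages per probe made with BeadStudio 3.1.3.0, without background subtraction or normalization. The detection p-value, also deposited, compares a probe with its array's negative controls. A second deposited table holds intensities the authors had normalized in a way that the sources used here do not give, and it served as an alternative. The methods name version 4 of the BeadChip and the file header version 3, whose annotation named the probes: 28093 had 1 symbol, 13 several and 20692 none. Signals were background-corrected (limma 3.58.1 in R 4.3.3, neqc, offset 16), quantile-normalized and put on the log2 scale. The brightest probe stood for a gene. A gene was tested if either array detected it (detection p under 0.05) and called at 2-fold. With 1 array per condition no test was run. The script was tested on simulated data. Called members, members at 1.5-fold, the brightest and the most different of each role are named; the rest are counted. In the bound given, an undetected signal stands at the lowest detected one. Members and lists were chosen with earlier results of these data known. Promoters are from RefSeq, matched by gene ID. Alternatives covered background, normalization, filter, probe choice and threshold.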

Additional observations from a re-analysis of the deposited data

Results flagged for a closer look

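ITGAV had the opposite sign under the dyes, lower under H258 (-0.81) and higher under H342 (0.51) than untreated cells, with 1.32 between the dyes on the log2 scale. The difference rests on 1 probe and was not tested, since each condition is 1 array.

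The second ITGB1 probe (ILMN_1714820), which did not serve as the gene's value, differed by 1.12 between H342 and H258, where the brightest probe gave 0.57.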

How the results depend on the processing

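No paired analysis was possible because each condition has 1 array, and leaving out an array would end a comparison. Of 329 values of single named members under other settings, 321 kept their direction or lack of a call. Another 3 lost the call and 5 gained one, and no called value changed sign. In the reported processing only THBS2 under H342 and ITGAV between the dyes were called. Any other value counted as kept while it stayed under 2-fold, so the 321 do not measure how stable the sizes were. HSPG2 under H258, for example, went from 0.58 to 0.25 without background correction and counted as kept. Under H258 the count of members lower by 2-fold went from 0 to 1 (THBS2) with median scaling and without normalization, and to 3 at 1.5-fold. Under H342 the count lower by 2-fold, 1, became 0 with offset 50, without background correction, in the deposited table and at 3-fold. It became 2 with median scaling, without normalization, with cyclic loess and at 1.5-fold. The count higher under H342 went from 0 to 11 at 1.5-fold. The members' median under H342, 0.44, was 0.34 without normalization and 0.14 without the detection filter, which adds undetected genes. Between the dyes the median of 0.31 was 0.18 without that filter, and the count higher, 1, became 2 when probes were counted, 4 at 1.5-fold and 0 at 3-fold.

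The 1.5-fold counts were tried under other settings after seeing the data. The 11 members higher under H342 became 7 with offset 50, 5 without background correction, 5 without normalization and 6 in the deposited table. The 2 lower became 0 without background correction and in that table. Under H258 the 3 lower became 1 in both of those settings. Between the dyes the 4 higher became 2 with offset 50, and 1 without background correction and in the table. Signals near the lowest detected one leave dim members, such as THBS2, LAMA2 and HSPG2, with differences that depend on the background correction.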

Other observations

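Matrix proteases and their inhibitors act on the members' products. Of 22 tested under H258, 2 were called higher and 2 lower, beside 0.768% and 3.35% of all genes tested. Under H342 it was 1 higher and 1 lower of 21, beside 1.25% and 3.61%. Between the dyes 1 of 22 was higher and 2 were lower under H342, beside 3.74% and 3.69%. Their median log2 difference was 0.17 under H258 and 0.29 under H342. MMP3 (stromelysin 1) had signals of 269, 494 and 193 in untreated, H258 and H342 cells, 2.54-fold higher under H258 and 4.47-fold lower under H342 than under H258. MMP14, a membrane-bound protease, had 148, 200.0 and 191 and was not detected in untreated cells. Its log2 difference under H258 was 1.03, and 0.55 in the deposited table, so its call rests on the background correction. ADAM9 had 1825, 795 and 2064, 2.43-fold lower under H258, and ADAMTS6 had 898, 465 and 683. ADAMTS1 had 1920, 2040 and 735, 2.72-fold lower under H342. MMP24 had 164, 202 and 223, higher under H342 by 1.10 on the log2 scale and by 0.56 in the deposited table. In the deposited table MMP3 under H258 differed by 0.91 and ADAMTS6 by -0.84 on the log2 scale, short of 2-fold.

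Among 23 other glycoproteins and proteoglycans tested under H258, 2 were called lower, beside 3.35% of all genes tested. Under H342 1 of 23 was called lower, beside 3.61%, and between the dyes 1 of 21 was called higher under H342, beside 3.74%. POSTN (periostin), an integrin ligand, had signals of 1265, 551 and 1297, 2.52-fold lower under H258. SPP1 (osteopontin), another integrin ligand, had 232, 146 and 115 and was detected in untreated cells only, so its fold depends on the background correction. In the deposited table the log2 differences were -0.72 with H258, short of 2-fold, and -1.06 with H342. ITGAV, ITGB1, POSTN, ADAM9 and LPP each had their lowest signal in H258 cells; these genes were picked for that after their values were seen.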
